A study of Mus musculus with 198 samples.

Results

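Cultured mouse cortical neurons that carried 1 of 2 altered DNMT3A constructs, W297del or S312fs11x, were described by bisulfite sequencing. Members were the shallow culture libraries at 12.5 days in vitro whose genotype label reads W297del (5 libraries) or S312fs11x (4 libraries), which makes 9 of the 198 samples of the series. Each construct was set against 2 groups of the same cultures, the WT construct (13 libraries) and the DNMT3a knockout (10 libraries), and cultures labelled No virus control (10 libraries) gave the untransduced level. All these cultures came from C57BL/6J embryos at day 14.5, with male and female cells pooled. The question was whether an altered protein still methylates neuronal DNA when supplied in place of the normal enzyme.

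DNMT3A is a de novo DNA methyltransferase. In postnatal neurons it places methyl groups on cytosines outside CG pairs, above all on CA, while CG methylation is largely laid down earlier and copied at division by DNMT1. Its PWWP domain binds nucleosomes methylated on lysine of histone H3, and the ADD and catalytic domains follow it in the protein. By the usual naming of protein changes, W297del is the in-frame loss of 1 tryptophan, and S312fs11x is a frameshift that ends the protein soon after a serine, ahead of the ADD and catalytic domains. Altered DNMT3A causes an overgrowth syndrome with intellectual disability, Tatton-Brown-Rahman syndrome.

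The labels limit what the groups can stand for. Cultures were chosen for sequencing, per the labels' protocols, when mutant and WT construct samples had matched Dnmt3a messenger RNA; protein amount is not among the values used here. As the study is known from its publication, and not from the labels, the floxed gene is removed with Cre virus and the construct is supplied by a second virus. Each of the 9 construct groups carried 1 plasmid number in its titles, and no 2 libraries held the same values. The labels do not say that libraries of a group came from separate cultures, so the p-values measure the spread between libraries, which may be technical. A library is a bulk sample, in which fewer transduced cells and less methylation per cell cannot be told apart, and no marker gene was measured that would check the neuronal label. Coverage was 0.01 to 0.03 genome equivalents per the labels, and the files give no number of cytosine calls, so the counting error of a single value could not be computed.

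Methylation at CA sites (mCA, the percentage of CA cytosines called methylated) was low in both variants. The 5 W297del libraries had 0.372%, 0.402%, 0.447%, 0.424% and 0.407% mCA. The 4 S312fs11x libraries had 0.478%, 0.567%, 0.469% and 0.365% mCA. The W297del libraries lay close together and the S312fs11x libraries were spread on both sides of them, with the lowest and the highest value of the 9. WT construct libraries ran from 0.585% to 1.55% mCA with a median of 1.12%, knockout libraries from 0.407% to 0.626% with a median of 0.491%, and No virus control libraries from 0.578% to 1.38% with a median of 0.8295%. Every library of both variants therefore lay below every WT construct library and inside or below the range of the knockout.

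**Figure D1:**
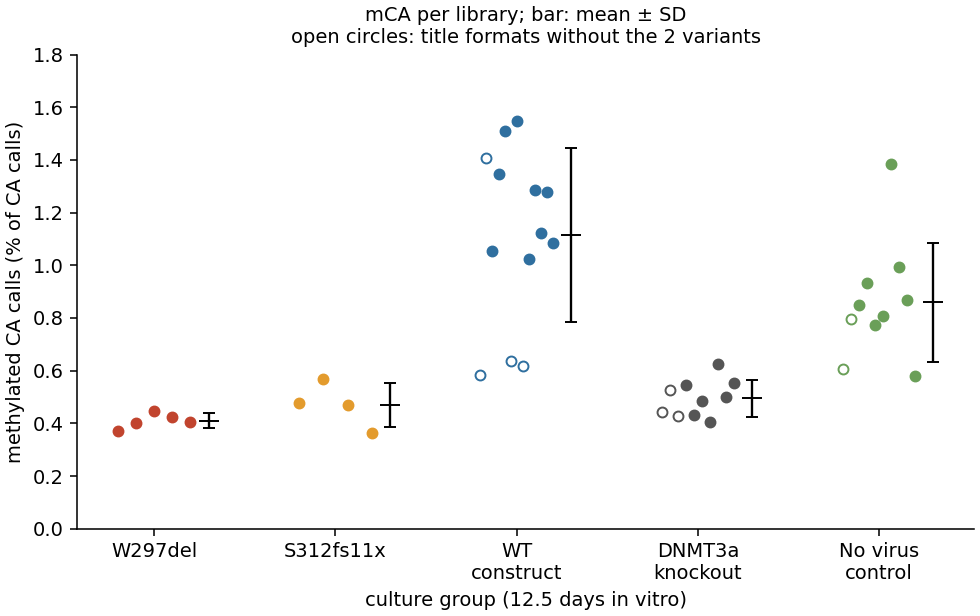
Percentage of CA cytosines called methylated (y axis) in each library (points) of the W297del, S312fs11x, WT construct, DNMT3a knockout and No virus control cultures, with the mean and SD as bars; open circles are libraries in title formats that hold neither variant. All 9 variant libraries sit at or below 0.567%, under the lowest WT construct library at 0.585%, and 3 of the 4 open WT construct circles are the lowest of that group.

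Against the WT construct, both variants were lower in mCA. W297del averaged 0.411% ± 0.0279 (SD, n = 5) and the WT construct 1.12% ± 0.330 (SD, n = 13), a difference of -0.705 percentage points (SE 0.0924, 95% interval -1.02 to -0.382) that left W297del at 36.8% of the WT construct level before any background is subtracted. In an exact permutation test (two-sided) p was 0.000117, which is the lower limit of its 8568 arrangements, and Benjamini-Hochberg adjustment over the 18 culture comparisons made it 0.000463. S312fs11x averaged 0.4699% ± 0.0828 (SD, n = 4), which was 42.1% of the WT construct level on the same scale, with a difference of -0.645 points (SE 0.100, 95% interval -0.999 to -0.281). Its exact two-sided permutation p was 0.000420, again the lower limit, and 0.00108 after adjustment. With each library's CC level subtracted the shares were 16.7% for W297del and 24.0% for S312fs11x. With lambda, the unmethylated spike-in, subtracted the means were -0.0313% for W297del, -0.0475% for S312fs11x and 0.527% for the WT construct, so no share could be formed. Both differences were larger than the SD of either group compared, while the WT construct libraries themselves ran from 0.585% to 1.55%. With medians in place of means the S312fs11x difference of -0.651 points had an adjusted exact permutation p of 0.0626.

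Against the knockout, the variants added no detectable mCA, and W297del fell slightly below it. The knockout averaged 0.495% ± 0.0694 mCA (SD, n = 10). W297del differed from it by -0.0842 points (SE 0.0253, 95% interval -0.156 to -0.0141), with an exact two-sided permutation p of 0.0220 and 0.0330 after adjustment. All 5 W297del libraries lay below the knockout mean and 2 of the 5 lay below every knockout library, so the groups overlapped. S312fs11x differed from the knockout by -0.0248 points (SE 0.0469, 95% interval -0.118 to 0.0677, exact two-sided permutation p = 0.574, adjusted p = 0.574). A gain over the knockout of more than 0.0677 points, which compares with the gain of 0.621 points measured for the WT construct, lay outside that interval for S312fs11x. With each library's CC level subtracted the upper limit for S312fs11x was 0.0959 points, beside a WT construct gain of 0.599 points. Expressed as a share of the WT construct's gain over the knockout, the mean of W297del stood at -13.6%, and with each library's CC level subtracted the shares were -10.5% for W297del and -0.922% for S312fs11x.

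The call for W297del against the knockout depended on how background was treated. W297del also had the lowest mean of the 11 culture groups for the unmethylated lambda spike-in, whose apparent methylation reads cytosines left unconverted by bisulfite, and for CC sites. With each library's CC level subtracted, mCA averaged 0.133% ± 0.0356 (SD, n = 5) in W297del cultures and 0.196% ± 0.0751 (SD, n = 10) in knockout cultures, a difference of -0.0631 points (95% interval -0.142 to 0.0135) with an adjusted exact permutation p of 0.140. With lambda subtracted the difference was 0.0274 points in the other direction, with an adjusted exact permutation p of 0.754. The call was also lost with medians (adjusted exact permutation p = 0.138) and when W297del replicate 1, 2, 4 or 5 was left out (adjusted exact permutation p from 0.0524 to 0.0899).

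**Figure D2:**
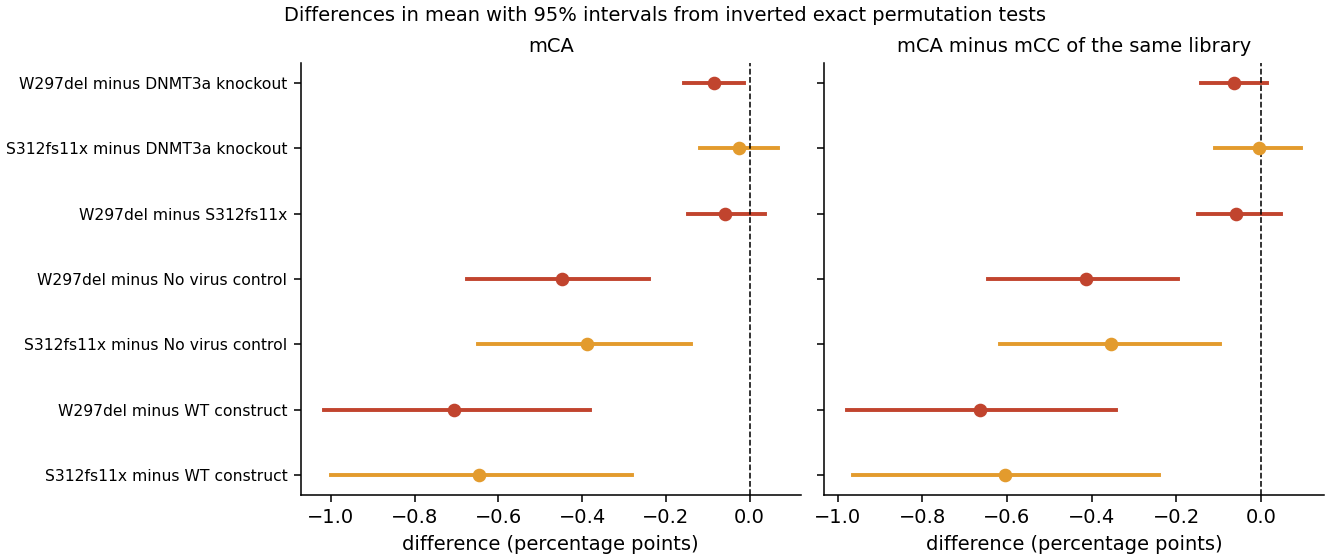
Difference in mean (x axis, percentage points) with its 95% interval for mCA (left) and for mCA minus mCC of the same library (right), for W297del and S312fs11x against the DNMT3a knockout, each other, the No virus control and the WT construct. The intervals against the WT construct and the No virus control stay below 0 in both panels, and the interval of W297del against the knockout reaches -0.0141 in the left panel and 0.0135 in the right.

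The in-frame deletion and the frameshift were not told apart in mCA. W297del minus S312fs11x was -0.0594 points (SE 0.0432, 95% interval -0.147 to 0.0361), with an exact two-sided permutation p of 0.175, and 0.175 after adjustment over the 3 added comparisons; the smallest p that 5 against 4 libraries allow is 0.00794. The groups overlapped because S312fs11x replicate 4, at 0.365%, lay below all 5 W297del libraries while the other 3 lay above them all. Without that library the difference was -0.0943 points with an adjusted exact permutation p of 0.0268. With all 9 libraries and CC subtracted it was -0.0576 points (adjusted exact permutation p = 0.254). With lambda subtracted it was 0.0162 points in the other direction (adjusted exact permutation p = 0.786). Lambda itself differed by -0.0755 points between the 2 variants, a larger gap than that in mCA. Titles give 3 construct codes within S312fs11x, with 0.523% as the mean of 2 libraries, 0.469% in 1 library and 0.365% in 1 library, and 2 codes within W297del, with means of 0.427% over 2 libraries and 0.399% over 3 libraries. The interval of the difference leaves room for a gap of 0.147 points, so a likeness of the 2 proteins is not shown.

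With CC subtracted both variants stayed below the WT construct. The S312fs11x libraries had 0.236%, 0.282%, 0.161% and 0.0827% of mCA above their own mCC, and the W297del libraries had 0.0863%, 0.149%, 0.166%, 0.104% and 0.160%. WT construct libraries averaged 0.795% ± 0.327 (SD, n = 13) on this scale. The difference was -0.663 points for W297del (adjusted exact permutation p = 0.00144) and -0.605 points for S312fs11x (adjusted exact permutation p = 0.00378). The ratio of mCA to mCC averaged 1.49 in W297del, 1.70 in S312fs11x, 3.50 in WT construct, 1.68 in knockout and 2.76 in No virus control libraries. In both variants the ratio thus lay near that of the knockout.

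Cultures labelled No virus control lay above both variants. The title of replicate 10 also carries the plasmid number of the WT construct. That library had the lowest mCA of the group, 0.578%. It was kept in the group, and no comparison was run without it. The No virus control averaged 0.859% ± 0.225 mCA (SD, n = 10). W297del was lower by a difference of -0.449 points (adjusted exact permutation p = 0.000999) and S312fs11x by a difference of -0.389 points (adjusted exact permutation p = 0.00749). As a check of the labels, the WT construct was 0.621 points above the knockout (adjusted permutation p = 0.000463) and the knockout differed by -0.364 points from the No virus control (adjusted permutation p = 0.000463).

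CT sites, which DNMT3A methylates less readily than CA, showed the same order at smaller size. The W297del libraries had 0.333%, 0.318%, 0.352%, 0.374% and 0.316% mCT, and the S312fs11x libraries 0.322%, 0.374%, 0.383% and 0.329%. Means were 0.338% ± 0.0244 (SD, n = 5) in W297del, 0.352% ± 0.0310 (SD, n = 4) in S312fs11x, 0.531% ± 0.0868 (SD, n = 13) in WT construct and 0.369% ± 0.0424 (SD, n = 10) in knockout libraries. W297del differed from the WT construct by -0.192 points (adjusted exact permutation p = 0.00105) and S312fs11x by -0.179 points (adjusted exact permutation p = 0.00189). Neither differed from the knockout beyond the spread, with differences of -0.0301 points for W297del (adjusted exact permutation p = 0.199) and -0.0167 points for S312fs11x (adjusted exact permutation p = 0.546). The 2 variants differed by -0.0134 points (exact permutation p = 0.476).

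CC sites carry the least methylation of the 3 non-CG contexts and moved little. The W297del libraries had 0.285%, 0.253%, 0.281%, 0.320% and 0.247% mCC, and the S312fs11x libraries 0.242%, 0.285%, 0.307% and 0.282%. WT construct libraries averaged 0.3198% ± 0.0288 (SD, n = 13) and knockout libraries 0.299% ± 0.0394 (SD, n = 10), and both ranges overlapped those of the variants. The differences from the WT construct were -0.0423 points for W297del (exact permutation p = 0.0141, adjusted p = 0.120) and -0.0405 points for S312fs11x (exact permutation p = 0.0286, adjusted p = 0.129), and neither passed the adjustment.

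CG methylation did not separate the variants from any group, nor the reference groups from each other. The WT construct differed from the knockout by 1.81 points (adjusted permutation p = 0.813). The knockout differed from the No virus control by -1.41 points (adjusted permutation p = 0.813). The CG values therefore cannot show whether a variant adds CG methylation. The W297del libraries had 75.3%, 74.3%, 73.7%, 72.4% and 72.8% mCG, and the S312fs11x libraries 72.9%, 74.9%, 71.2% and 74.1%. WT construct libraries averaged 73.7% ± 2.52 (SD, n = 13) and knockout libraries 71.9% ± 3.28 (SD, n = 10). W297del differed from the WT construct by -0.0295 points (95% interval -2.47 to 2.51) and from the knockout by 1.78 points (-1.45 to 5.15). S312fs11x differed from the WT construct by -0.474 points (95% interval -3.35 to 2.43) and from the knockout by 1.33 points (-2.37 to 5.23). All 4 adjusted exact permutation p values were 0.813 or more, and the intervals do not exclude shifts of 2 to 5 points. Both differences from the WT construct changed sign when certain single libraries were left out, while both differences from the knockout stayed positive. Within the 2 title formats that hold the variants, described below, the differences from the WT construct were -1.03 points for W297del and -1.48 points for S312fs11x (adjusted exact permutation p = 0.532 for each).

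Lambda marks the background of each library. It read 0.361%, 0.415%, 0.517%, 0.523% and 0.393% in the W297del libraries and 0.5398%, 0.495%, 0.471% and 0.563% in the S312fs11x libraries. It averaged 0.588% ± 0.185 (SD, n = 13) in WT construct libraries and 0.553% ± 0.111 (SD, n = 10) in knockout libraries. W297del differed from the knockout by -0.112 points (exact permutation p = 0.0629, adjusted p = 0.787), a gap in lambda larger than its gap in mCA. mCA was below lambda in 3 of 5 W297del, 3 of 4 S312fs11x, 0 of 13 WT construct, 6 of 10 knockout and 0 of 10 No virus control libraries. Lambda exceeded mCC in 88 of 88 grouped culture libraries, so it overstates the unconverted share at CC sites and its subtraction can pass below 0.

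**Figure D3:**
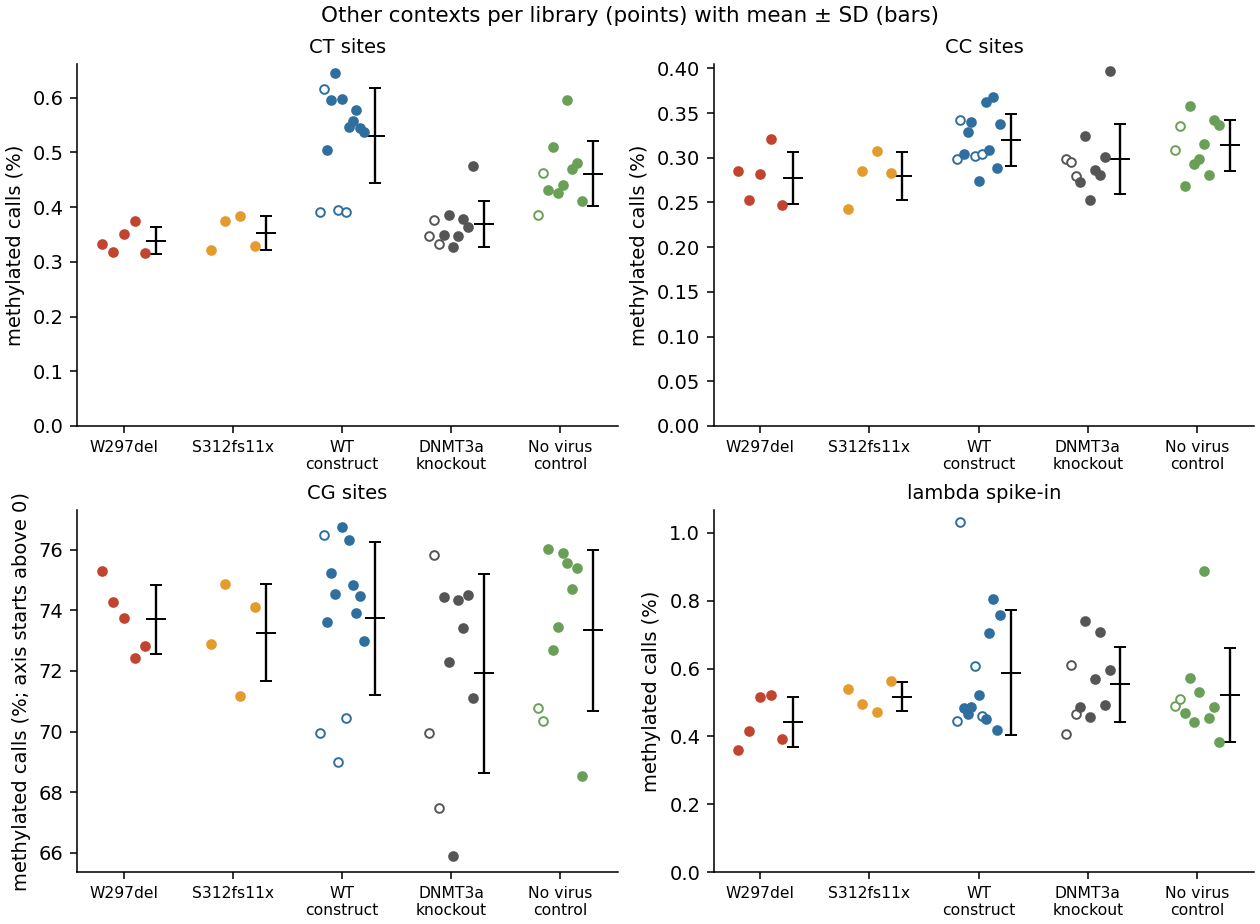
Percentage of methylated calls (y axis) at CT, CC and CG sites and in the lambda spike-in, per library (points) with mean and SD (bars), in the W297del, S312fs11x, WT construct, DNMT3a knockout and No virus control cultures; open circles are libraries in title formats that hold neither variant, and the CG axis starts above 0. CT separates the variants from the WT construct as CA does, while the CC and CG points of all 5 groups overlap.

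Titles fell into 5 formats, and both variants occur in only 2 of them. One format held 4 W297del, 3 S312fs11x, 7 WT construct and 6 knockout libraries, and the other held 1, 1, 2 and 1 of them in the same order. In that other format the title numbers of the variant libraries lay far from those of the control libraries, so a shared format need not mean matched libraries. The labels do not say what a format marks. In those 2 formats the WT construct averaged 1.25% ± 0.194 mCA (SD, n = 9), against 0.585%, 0.638%, 0.617% and 1.41% in its 4 libraries elsewhere, which include its 3 lowest. Restricting the comparison to the 2 formats gave -0.840 points for W297del against the WT construct (adjusted exact permutation p = 0.00150) and -0.780 points for S312fs11x (adjusted exact permutation p = 0.00315). W297del against the knockout was -0.0963 points there (adjusted exact permutation p = 0.0350), and in the format with most variant libraries alone it was -0.104 points (adjusted exact permutation p = 0.0857). Against the WT construct, the latter format alone gave -0.792 points for W297del (adjusted exact permutation p = 0.00779) and -0.729 points for S312fs11x (adjusted exact permutation p = 0.0167).

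Sets of libraries with running numbers in their titles place some variant libraries beside a control. The same numbers recur across sets, so a neighbour is not always the control with the nearest number. S312fs11x replicate 4 was set beside knockout replicate 7 at 0.407%. Knockout replicates 4 and 9, whose titles carry nearer numbers, had 0.547% and 0.499%. The labels do not say what the numbers mark, so these neighbours are a description. Of the 5 variant libraries with a knockout neighbour, all 5 were lower in mCA, by differences of -0.0592 to -0.0286 points, and 4 of the 5 were also lower in lambda. With CC subtracted 4 of the 5 were lower, and W297del replicate 2 was higher, at 0.149% beside 0.107%. W297del replicates 1 and 2 had 0.372% and 0.402% beside the same knockout library at 0.431%, W297del replicate 3 had 0.447% beside 0.499%, S312fs11x replicate 2 had 0.567% beside 0.626%, and S312fs11x replicate 4 had 0.365% beside 0.407%. In the 1 set of neighbouring numbers that holds both variants, W297del replicate 4 had 0.424% and S312fs11x replicate 3 had 0.469%. Under these sets the highest and the lowest S312fs11x library stood beside the highest and the lowest knockout library, which rests on how the sets were formed. Of the 5 variant libraries with a WT construct neighbour, all 5 were lower in mCA, by differences of -0.717 to -0.651 points. All 5 were also lower in lambda, by differences of -0.366 to -0.0696 points. With CC subtracted all 5 stayed lower in mCA, by differences of -0.693 to -0.587 points.

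**Figure D4:**
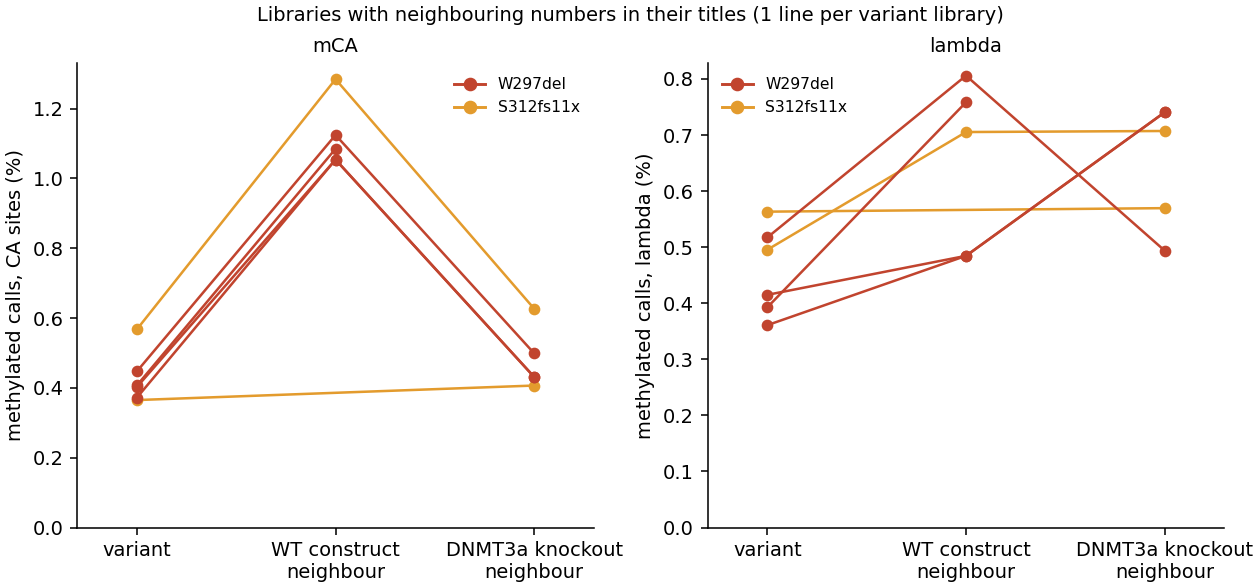
mCA (left) and lambda (right), as the percentage of methylated calls (y axis), in variant libraries and in their WT construct and DNMT3a knockout neighbours (x axis). Neighbours are libraries of the same set of title numbers. Each line is 1 variant library, and lines may share a neighbour. mCA is lower in the variant than in either neighbour on every line, by 0.0286 points or more. Lambda is also lower in the variant than in its WT construct neighbour in 5 of 5 pairs. It is lower than in the knockout neighbour in 4 of 5 pairs.

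Among the 8 altered constructs, the 2 variants lay at the low end in mCA. W297del had the lowest group mean, followed by M548K, whose change lies in the ADD domain, at 0.440% ± 0.0445 (SD, n = 6), then S312fs11x and the knockout. Each gap between neighbouring means in this stretch was smaller than the larger SD of the pair. R749C, P904L, G532S, V665L and Y735C had means of 0.543% (R749C) to 0.941% (Y735C), all above the knockout mean. Against the knockout, the adjusted exact permutation p was 0.393 for R749C, 0.132 for P904L and 0.132 for M548K. These constructs were thus not told apart from the knockout either. For G532S, V665L and Y735C the adjusted permutation p against the knockout was 0.000463, 0.00506 and 0.000360. Each library of W297del and S312fs11x lay below 0.575%, the lowest of the 7 G532S libraries, whereas the lowest libraries of R749C (0.412%), P904L (0.431%) and V665L (0.499%) lay among the variant libraries. Differences between the variants and the other altered constructs were not tested.

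**Figure D5:**
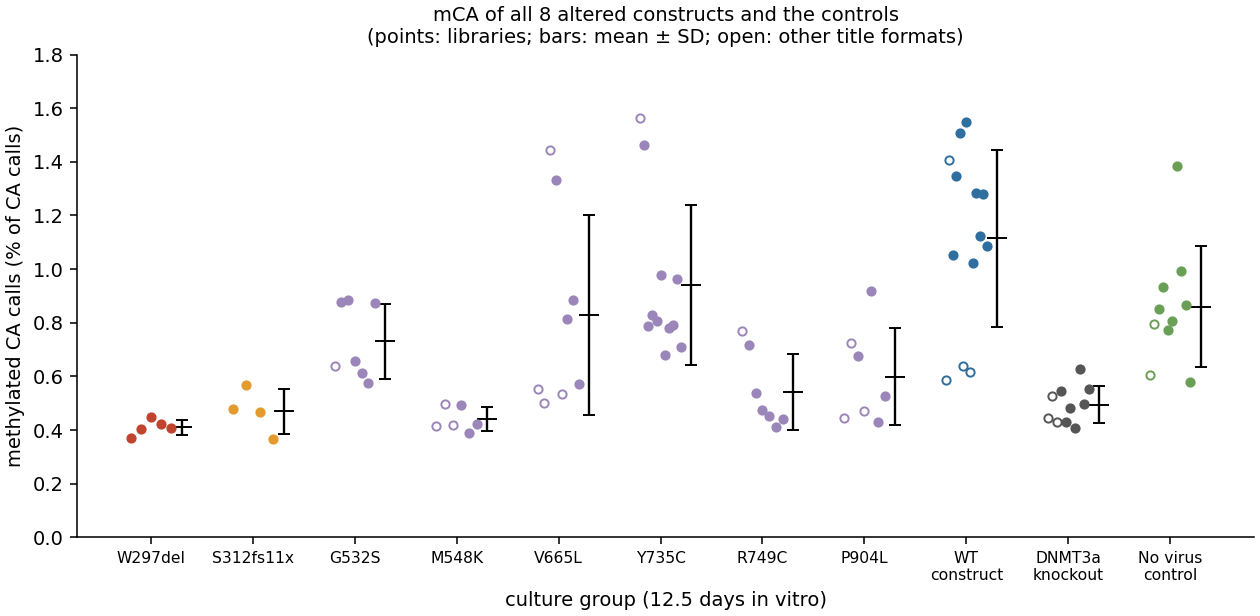
Percentage of CA cytosines called methylated (y axis) per library (points) with mean and SD (bars) for all 8 altered constructs, the WT construct, the DNMT3a knockout and the No virus control; open circles are libraries in title formats that hold neither W297del nor S312fs11x. The means of W297del (0.411%), M548K (0.440%) and S312fs11x (0.4699%) are the lowest, below the knockout mean of 0.495%.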

How the data were processed

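The authors deposited 1 fraction of methylated cytosines per library for CA, CT, CC, CG and lambda, without counts; BS-Seeker2, bedtools and the mm9 genome were used per the submitters' processing notes, and versions are not given in the sources used here. Each fraction was expressed as a percentage (times 100), with no background correction. Groups came from genotype labels; of 90 culture libraries at 12.5 days in vitro, 2 whose title and label disagree entered no comparison. Means were compared by two-sided permutation tests, exact where a group held fewer than 10 libraries and with 100000 resamples otherwise (seed 1), with Benjamini-Hochberg adjustment per context over 18 comparisons, and over 3 for W297del against S312fs11x and each variant against the No virus control. The threshold was an adjusted p of 0.05. The 95% intervals invert the exact test and so take the groups to differ by a shift alone, with equal spread. The SE lets the spreads differ, so SE and interval need not match where the SDs are far apart. Python 3.11.15, numpy 2.4.6, pandas 2.3.3, scipy 1.17.1 and matplotlib 3.10.9 were used, and the test was tested on simulated data. No gene was named by a rule, since no gene was measured; all libraries of both variants are given. The members, contexts and comparisons were chosen with earlier results of these data known. Alternatives were subtraction of lambda or CC, medians, title formats, averaged construct codes, and placing the 2 disagreeing libraries by title. Each library of the variants, the WT construct and the knockout was also left out in turn. Averaging joined only libraries with the same full code. No variant libraries shared a full code and knockout libraries carry none, so differences among these groups could not change under it. The shorter codes given in the Results were not averaged. The gene and enhancer table of the deep libraries was not used.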

Additional observations from a re-analysis of the deposited data

Results flagged for a closer look

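A gap test was run in the W297del, S312fs11x, DNMT3a knockout and No virus control groups, which hold 4 to 10 libraries. The gap of the highest or lowest library to its nearest neighbour was set against the group's range. The other culture groups were not screened. In groups of 4 or 5 libraries only a very wide gap passes, and none did; S312fs11x replicate 4, whose removal changes the mCA comparison with W297del, is therefore not cleared by it. DNMT3a knockout replicate 10 stood apart at CT (0.475%, next highest 0.386%) and at CC (0.397%, next highest 0.324%). No virus control replicate 7 stood apart at CA (1.38%, next highest 0.994%) and in lambda (0.888%, next highest 0.573%). Chance alone marks some groups in such a set of 24 tests, of which 4 passed.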

How the results depend on the processing

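The mCA differences from the WT construct held under the alternatives run, except S312fs11x with medians (-0.651 points, adjusted exact permutation p = 0.0626). Leaving out 1 library gave -0.749 to -0.669 points for W297del and -0.690 to -0.609 for S312fs11x. W297del minus knockout in mCA was 0.0274 points with lambda subtracted, -0.0631 with CC subtracted, -0.0843 with medians, -0.104 in the title format of most variant libraries (chosen after seeing the data), -0.125 with disagreeing libraries placed by title, and -0.0940 to -0.0696 with 1 library left out; the call was lost under the first 5 and without W297del replicate 1, 2, 4 or 5. S312fs11x minus knockout was 0.0112 with lambda subtracted, -0.0659 with disagreeing libraries placed by title, and -0.0573 to 0.0101 with 1 library left out, positive without S312fs11x replicate 4. W297del minus S312fs11x was 0.0162 with lambda subtracted and -0.0943 to -0.0269 with 1 left out. At CG, W297del minus WT construct was 0.117 with lambda subtracted, 0.0128 with CC subtracted, 0.190 with construct codes averaged, -1.03 in the 2 title formats of the variants, and -0.426 to 0.290 with 1 left out; S312fs11x minus WT construct was -1.48 in those formats and -1.01 to 0.217 with 1 left out, and W297del minus S312fs11x -0.247 to 0.976 with 1 left out. At CT, S312fs11x minus knockout was 0.00254 with CC subtracted. The cause of these changes was not tested. No paired analysis was possible because replicate numbers follow accession order and so pair no libraries. Permuting within title format in its place gave adjusted exact permutation p values of 0.0396 for W297del minus knockout, 0.577 for S312fs11x minus knockout and 0.214 for W297del minus S312fs11x in mCA. No culture library had a missing or 0 lambda value, so that alternative was not run. The counting error of a single value is unknown, and knockout differences of under 0.1 points are near the lambda gap between the groups.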

Other observations

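In 2 culture libraries the title and the genotype label disagree, and neither entered a group. The library labelled No virus control whose title carries Cre had 0.947% mCA, and the library labelled DNMT3a knockout whose title carries NV had 0.476% mCA.

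Untransduced wild-type cultures were sequenced at labelled ages of 4, 7, 10 and 12 days. The titles of both day 12 libraries can be read as 12.5 days, the age of the variant cultures, and the age label was used. At day 4 their mCA was 0.593% and 0.506%, at day 7 0.589% and 0.567%, at day 10 0.887% and 0.728%, and at day 12 1.10% and 1.18%. With CC subtracted, mCA was 0.192% and 0.147% at day 4, 0.208% and 0.214% at day 7, 0.447% and 0.387% at day 10, and 0.769% and 0.777% at day 12. On that scale W297del averaged 0.133% and S312fs11x 0.191% at 12.5 days, which puts W297del below both day 4 values and S312fs11x between them. The day 4 to day 12 libraries had lambda of 0.565% to 0.698%, against 0.361% to 0.563% in the 9 variant libraries, and no test was made.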
